A study of Oryza sativa with 6 samples.

Results

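Ribulose-1,5-bisphosphate carboxylase/oxygenase (Rubisco) and the proteins that keep it working were followed here through 4 rice genes: RBCS1 and RBCS, which encode small subunits of Rubisco, rca, which encodes Rubisco activase, and R5P3E, which encodes ribulose-5-phosphate 3-epimerase. The members were all probe sets of the rice expression array whose listed gene is 1 of these 4 and no other. They came to 10 probe sets of the 57381 on the array, for 4 of 17905 genes with a probe set listed for them alone. Of the 10, 1 was listed for RBCS1, 4 for RBCS, 4 for rca and 1 for R5P3E. The rule uses no measured value, but the 4 genes were chosen with earlier results of these data known. The study also named Rubisco small chain and activase genes among those it reported from these same arrays, so the direction of RBCS1, RBCS and rca is not independent evidence. Its small chain loci were not matched to RBCS1 or RBCS here, and its fold changes were not compared with those below.

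The BA group held 3 arrays of detached leaves kept in a solution of the cytokinin 6-benzyl adenine (BA), made at 2 mg/ml, and the untreated group held 3 arrays of detached leaves kept in the same dilute alkali and detergent solution without BA. Both groups were the third leaf of the rice cultivar Nagina 22 (N22), each sample a batch of several grams of leaves, cut from plants that the labels give as 30-day-old, and both stood in darkness for 72 h, a treatment that brings on dark-induced senescence. One label field gives 2 h in place of 72 h for every sample, and 72 h is used here because the extraction protocol and the study's methods state it. Leaves that had not been darkened were not analysed here, so each comparison sets BA-treated against untreated dark leaves and gives no change from the fresh leaf.

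Rubisco fixes carbon dioxide onto ribulose-1,5-bisphosphate in the Calvin-Benson cycle and is the most abundant protein of the leaf. Its large subunit is encoded in the plastid genome and its small subunit by a family of nuclear RBCS genes, whose members are close in sequence. Activase uses ATP to free inhibited Rubisco sites of bound sugar phosphates, and the epimerase converts xylulose 5-phosphate to ribulose 5-phosphate, a step that renews the acceptor of carbon dioxide. In senescing leaves Rubisco is broken down and its nitrogen is exported, and cytokinins can keep detached leaves green for longer.

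The values were PLIER signals, a linear summary of the brightness of the probes of a set, with a lowest value of 16 and array medians of 22.5 to 23.3. The log2 difference between BA replicates 2 and 3 had an SD of 0.16 over all probe sets, the smallest of the 15 pairs of arrays, whose remaining values ran from 0.416 to 0.615. Untreated replicate 3 stood apart in the probe set for 28S ribosomal RNA, with a signal of 346 against 28.3 to 47.1 on the other 5 arrays. The probe sets for bacterial poly-A control RNAs were lower on the BA arrays by a mean of 1.08 on the log2 scale. Those for the hybridization controls had log2 means of 8.11 to 8.30 on the BA arrays and 8.49 to 8.80 on the untreated arrays. The part of these differences in the results was not tested. Of the marker genes, the 2 measured for green leaf cells had summed signals of 1132 to 1971 in BA leaves and 791 to 2328 in untreated leaves. Both markers of root and both of pollen, 9 of 10 markers of seed endosperm and 6 of 7 of dividing meristem had mean signals under 32. In whole leaves, fewer cells of a type and less RNA per cell cannot be told apart.

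RBCS1 and all 4 probe sets of rca had higher signals on every BA array than on every untreated array, at 1.71 to 1.80 times the untreated level. RBCS was higher on average in BA leaves, but its groups overlapped and its arrays were far apart within both groups. R5P3E was slightly lower on average in BA leaves, again with overlap. With limma and Benjamini-Hochberg adjustment over all 57258 rice probe sets, 0 of the 10 members had an adjusted p under 0.05, where 0.159% of all rice probe sets did, and 5 of the 10 had an unadjusted p under 0.05, against 8.48% of all rice probe sets. At thresholds of over 1.5-fold, as the study used, and an unadjusted p under 0.05, 5 of the 10 members were called higher, against 1.73% of all rice probe sets, and none was called lower, against 2.16%. With limma fitted only to the 28629 probe sets with mean signals above the median, 1009 were higher and 1262 lower at these thresholds, larger shares. The same 5 members had groups that did not overlap with BA higher, against 6.71% of all rice probe sets. Of these 5 probe sets, 4 measure a single gene, rca, so the 5 are not independent observations. Over the 10 members the median log2 change was 0.74, with 9 above 0, and over all rice probe sets it was -0.00, with 49% above 0. The 9 include all 4 probe sets of RBCS and all 4 of rca, so they too are not independent observations. Among them is Os.49262.1.A1_x_at of RBCS, which lay at 16.8 to 19 in BA leaves, close to the lowest value.

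**Figure D1:**
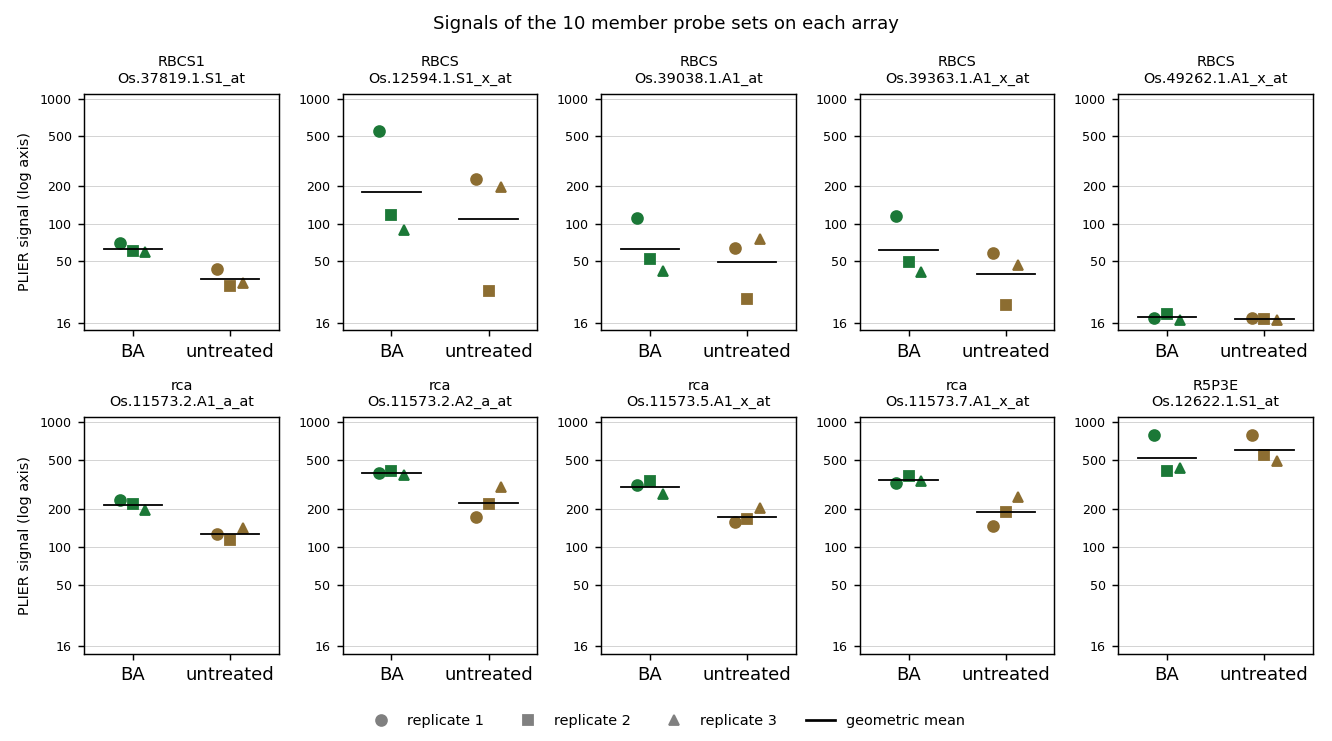
PLIER signal (log axis) of each member probe set in BA-treated and untreated dark leaves, with 1 point per array, replicate numbers shown by the symbol and a line at the geometric mean. RBCS1 and the 4 rca panels show no overlap between groups, while 3 RBCS panels share a high BA replicate 1 and a low untreated replicate 2, and the fourth lies close to 16 on all arrays.

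RBCS1, the small subunit gene on chromosome 12 also named RBCS-A, had 1 probe set of its own, Os.37819.1.S1_at. Its signal was 69.8, 59.8 and 58.9 in BA leaves and 43.2, 31.4 and 33.6 in untreated leaves. The lowest BA array thus stood above the highest untreated array, and within each group the arrays lay close together. The means were 62.9 ± 6.05 in BA leaves and 36.1 ± 6.29 in untreated leaves (SD, n = 3 each). The log2 change was 0.79 (95% interval 0.44 to 1.15), or 1.73-fold, with a limma p of 0.0015 before and 0.15 after adjustment. Of all rice probe sets, 1.62% had a higher log2 change. Because the deposited values do not go below 16, a change in a signal of this size is compressed: with that constant taken off, the log2 change was 1.22, over 1.5 times the reported value, with an adjusted p of 0.28.

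Another 5 probe sets were listed with RBCS1 together with LOC4352016 and LOC4352021, which lie near it on chromosome 12 in the reference annotation (assembly ASM3414082v1), with 2 annotated genes between RBCS1 and LOC4352016 and 3 between LOC4352016 and LOC4352021. They cannot be assigned to 1 gene and were kept out of the members. Some of their names end in _x_at, the suffix for sets whose probes may also bind other transcripts. Signal from other RBCS transcripts may therefore enter them, so their level cannot be ascribed to these neighbouring genes alone. The probe set Os.28133.1.S1_x_at had signals of 788, 657 and 615 in BA leaves and 397, 195 and 268 in untreated leaves. The probe set Os.28133.1.S1_s_at had 549, 412 and 453 in BA leaves and 217, 105 and 172 in untreated leaves. Neither pair of groups overlapped, and replicate 1 was the highest array of each group in both probe sets. Their log2 changes were 1.31 (95% interval 0.66 to 1.96, limma adjusted p = 0.20) and 1.57 (0.88 to 2.25, adjusted p = 0.15).

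The probe set Os.28218.1.S1_x_at had 333, 201 and 174 in BA leaves and 155, 64.3 and 90.4 in untreated leaves, and Os.28218.1.S1_at had 197, 118 and 105 in BA leaves and 105, 45.4 and 42.7 in untreated leaves. BA stayed above untreated in both, by a narrow margin between BA replicate 3 and untreated replicate 1. The log2 changes were 1.22 and 1.18, with limma adjusted p of 0.43 and 0.50. Without untreated replicate 2 or untreated replicate 3, or without BA replicate 1, only 2 of the 5 shared probe sets passed the 1.5-fold and unadjusted p thresholds, against 4 with all arrays. The probe set Os.40411.1.A1_x_at lay at 16.3 to 21.9 in BA leaves and 16.3 to 17.1 in untreated leaves, too close to the lowest value for a change to be read. Across the 6 arrays the log2 signal of Os.28133.1.S1_x_at followed that of the RBCS1 probe set with a Pearson r of 0.99, a description over arrays that share the 2 groups.

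**Figure D2:**
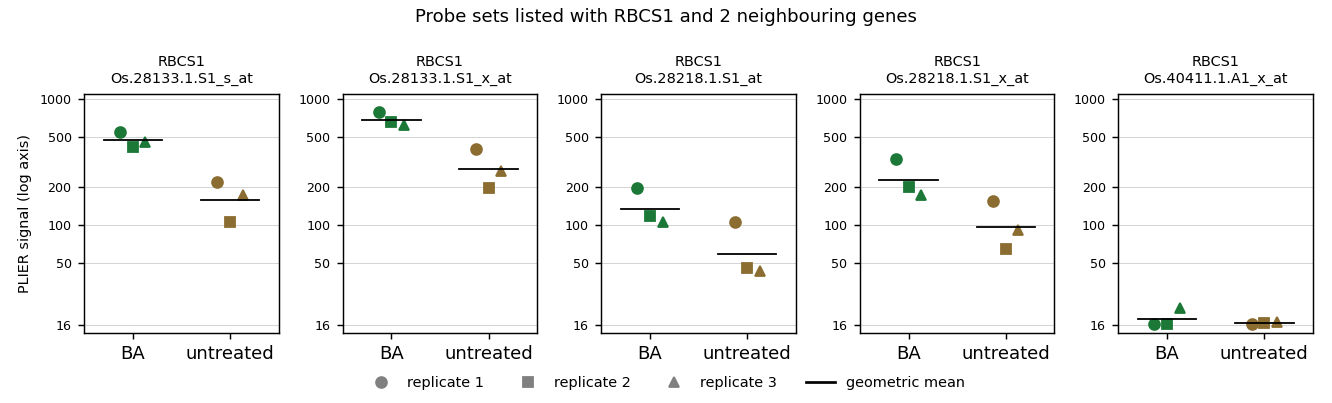
PLIER signal (log axis) of the 5 probe sets listed with RBCS1 and 2 neighbouring genes, in BA-treated and untreated dark leaves, with 1 point per array and a line at the geometric mean. In 4 of the 5 every BA array lies above every untreated array, with log2 changes of 1.18 to 1.57, and the fifth lies near 16.

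RBCS, a second small subunit gene on chromosome 12 also named RBCS-C, is separated from RBCS1 by 66 annotated genes. Of its 4 probe sets, 3 carry the suffix that Affymetrix gives to sets whose probes may also bind other transcripts, so signal from related RBCS transcripts may enter them. The brightest, Os.12594.1.S1_x_at, had signals of 550, 117 and 89 in BA leaves and 229, 28.7 and 197 in untreated leaves. The spread was wide in both groups, with BA replicate 1 far above the other BA arrays and untreated replicate 2 far below the other untreated arrays, and the highest array was 19.2 times the lowest. The means were 252 ± 258 in BA leaves and 151 ± 108 in untreated leaves (SD, n = 3 each). The log2 change was 0.70 with a 95% interval of -1.81 to 3.22 and a limma adjusted p of 0.93, so neither direction could be told at this spread. Without BA replicate 1 the change was -0.10, and without untreated replicate 2 it was -0.24.

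The probe set Os.39038.1.A1_at, the only one of RBCS without the suffix for cross-binding, had 110, 52 and 42 in BA leaves and 64.1, 24.7 and 75.1 in untreated leaves. The probe set Os.39363.1.A1_x_at had 115, 49.5 and 40.6 in BA leaves and 58.4, 22.3 and 46.6 in untreated leaves. Both gave the picture of the brightest probe set, with BA replicate 1 highest and untreated replicate 2 lowest. Over the 6 arrays the 3 probe sets correlated at r = 0.94 to 0.99, so the same arrays were high or low in all 3. Their log2 changes were 0.33 (95% interval -0.97 to 1.63) and 0.63 (-0.60 to 1.87), with limma adjusted p of 0.93 and 0.86. With the constant of 16 taken off they were 0.58 and 1.05. Without BA replicate 1 they were -0.08 and 0.18, and without untreated replicate 2 they were -0.15 and 0.24. The probe set Os.49262.1.A1_x_at had 16.8 to 19 in BA leaves and 17 to 17.4 in untreated leaves, and it measured no level that could be compared. Between the brightest probe sets of RBCS and RBCS1, r over the 6 arrays was 0.53.

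The gene for Rubisco activase, rca, lies on chromosome 11 and had 4 probe sets. Of these, 2 carry the suffix for several transcripts of a single gene and 2 the suffix for possible cross-binding. The brightest, Os.11573.2.A2_a_at, had signals of 390, 408 and 376 in BA leaves and 173, 219 and 303 in untreated leaves. The BA arrays were close together, and untreated replicate 3 was the nearest to them. The means were 392 ± 15.9 in BA leaves and 232 ± 65.9 in untreated leaves (SD, n = 3 each). The log2 change was 0.79 (95% interval 0.29 to 1.29), or 1.73-fold, with a limma p of 0.0081 before and 0.31 after adjustment.

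The probe set Os.11573.7.A1_x_at had 325, 373 and 335 in BA leaves and 146, 190 and 249 in untreated leaves, and its log2 change of 0.85 was the largest of the 10 members. The probe set Os.11573.5.A1_x_at had 312, 339 and 267 in BA leaves and 157, 166 and 205 in untreated leaves, with a log2 change of 0.79. Untreated replicate 3 was again the highest untreated array in both. The probe set Os.11573.2.A1_a_at had 238, 222 and 198 in BA leaves and 128, 114 and 143 in untreated leaves. Its log2 change of 0.77 (95% interval 0.48 to 1.06) had the smallest p of the members, 0.00064 in limma before adjustment and 0.12 after it. The 4 probe sets correlated over the 6 arrays at r = 0.89 to 0.99, and their changes lay between 0.77 and 0.85. Untreated replicate 3, which had the high 28S signal, moved the change of the brightest probe set to 1.00 when it was left out, the upper end of a range of 0.60 to 1.00 over single arrays left out.

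**Figure D3:**
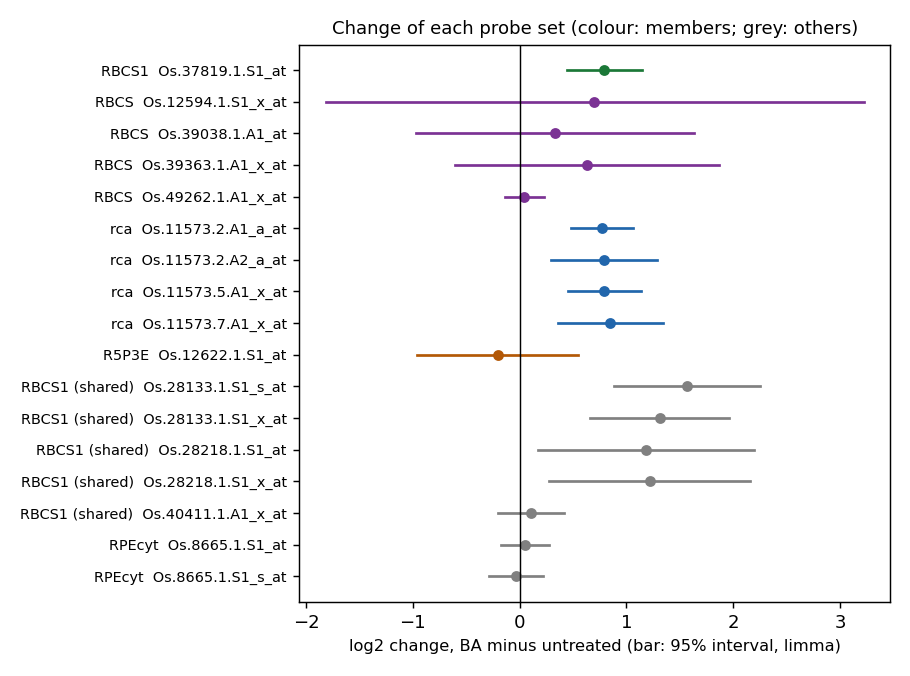
Log2 change, BA minus untreated, of the 10 member probe sets (colours), the 5 probe sets shared by RBCS1 and its neighbours and the 2 probe sets of the cytosolic epimerase (grey). Bars are 95% intervals from limma; the intervals of RBCS1 and of all 4 rca probe sets lie above 0, and that of the brightest RBCS probe set spans -1.81 to 3.22.

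R5P3E, the epimerase gene on chromosome 3 also named RPE, had 1 probe set, Os.12622.1.S1_at. Its signal was 788, 406 and 431 in BA leaves and 785, 544 and 492 in untreated leaves. Replicate 1 was the highest array in both groups and nearly equal between them, and the other BA arrays lay below all untreated arrays. The means were 542 ± 214 in BA leaves and 607 ± 156 in untreated leaves (SD, n = 3 each). The log2 change was -0.20 (95% interval -0.96 to 0.55) with a limma adjusted p of 0.93, and it lay between -0.51 and -0.00 when single arrays were left out. A second epimerase gene, RPEcyt, whose name marks it as the cytosolic form, had signals of 889, 942 and 973 in BA leaves and 872, 845 and 986 in untreated leaves on its brightest probe set. These arrays were close together in both groups, and the log2 change of 0.05 had a narrow 95% interval of -0.17 to 0.28.

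Differences between the changes of the member genes were tested on the per-array log2 difference of their brightest probe sets, over 7 pairs that included the 2 epimerase genes. The change of RBCS1 exceeded that of R5P3E by 1.00 on the log2 scale, with no overlap between the groups, and the exact two-sided permutation p was 0.1, the smallest that 3 against 3 arrays allow, or 0.7 after adjustment over the pairs. The change of rca exceeded that of R5P3E by 0.99 (exact permutation p = 0.2, adjusted 0.7). The change of RBCS1 and that of rca differed by 0.00 and that of RBCS1 and RBCS by 0.09 (exact permutation p = 1 for both). With 3 arrays a group no pair could pass 0.05, so none of these values shows that the genes moved alike or apart.

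**Figure D4:**
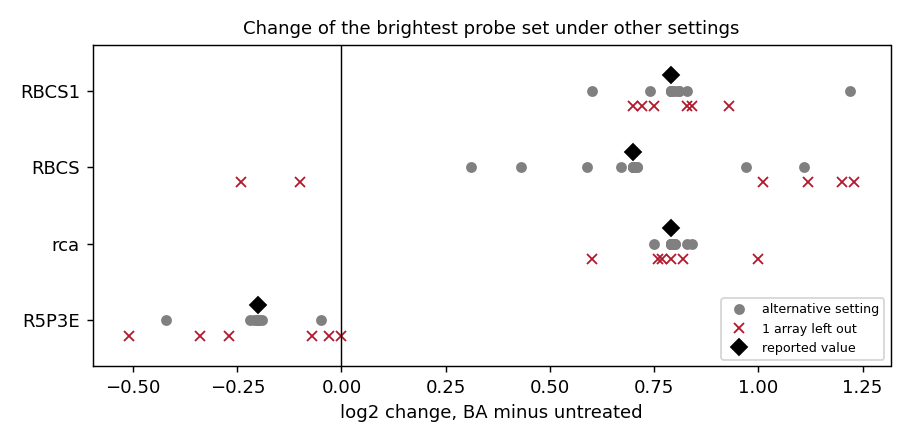
Log2 change, BA minus untreated, of the brightest probe set of each gene as reported (black diamonds), under alternative settings (grey circles) and with single arrays left out (red crosses). RBCS1 and rca stay above 0 at every point, RBCS falls on both sides of 0 and R5P3E reaches -0.00.

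The other genes of the Calvin-Benson cycle were taken from a list by name, which held 12 measured genes, the 4 members included. The list also holds genes of cytosolic counterparts in sugar metabolism. Its names for phosphoribulokinase, phosphoglycerate kinase, plastid glyceraldehyde phosphate dehydrogenase, sedoheptulose bisphosphatase, transketolase and ribose phosphate isomerase gave no measured gene. The genes below therefore do not stand for the rest of the cycle. Of the 8 that are not members, 4 had a log2 change above 0 and 4 below 0, the median was -0.02, and none passed an adjusted p of 0.05 or the 1.5-fold and p thresholds. ALDP, the plastid aldolase, was the single gene of these 8 with no overlap, at 1246, 1636 and 1752 in BA leaves and 1040, 873 and 1189 in untreated leaves. Its log2 change was 0.58 (limma adjusted p = 0.41). The aldolase genes FBA1 and FBA3 had log2 changes of -0.11 and -0.25. A further aldolase gene, FBA2, counted among those below 0 at -0.09, lay at 17.2 to 18.1 in BA leaves and 17.7 to 20.1 in untreated leaves, too close to the lowest value for a change to be read, and the triose phosphate isomerase gene TPI had -0.19. CFBP1, a fructose-1,6-bisphosphatase, had 0.53 with BA replicate 1 well below the other BA arrays, and FBPase, close to the lowest value, had 0.21. None of these 6 had groups without overlap. The gene for the large subunit, rbcL, and the 1 gene of the list of Rubisco assembly factors were not analysed here, so the small subunit genes could not be set beside the large one.

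Photorespiration, which recycles the product of the oxygenase reaction of Rubisco, had 9 measured genes, likewise taken by name, all with a log2 change above 0 and a median of 0.49. Counted among these, GDCSH lay close to the lowest value, at 26.3 to 29.3 in BA leaves and 17.6 to 31.2 in untreated leaves. Fd-GOGAT, the ferredoxin-dependent glutamate synthase, acts with glutamine synthetase in reassimilating the ammonium set free. Fd-GOGAT was higher in BA leaves than in untreated leaves and was the 1 gene of all these pathway lists past the adjusted threshold. Its signal was 275, 270 and 270 in BA leaves and 137, 143 and 124 in untreated leaves, a log2 change of 1.01 (limma adjusted p = 0.025). The change kept its size, at 0.94 to 1.11, but its adjusted p ran from 0.012 to 0.25 over 19 alternatives and missed 0.05 in 10 of them. These included the replicate block (adjusted p = 0.089) and leaving out BA replicate 1 (0.054), 2 or 3 (0.22 for both) or untreated replicate 1 (0.074). CAT-A, a catalase, had 2850, 3005 and 2774 in BA leaves and 1629, 1442 and 399 in untreated leaves, with the low value on untreated replicate 3 and a limma adjusted p of 0.49. In the remaining 7 genes the groups overlapped.

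Of the 2 genes of the oxidative pentose phosphate pathway, which shares the epimerase with the Calvin-Benson cycle, 6PGDH2 had a log2 change of 0.93 with no overlap (limma adjusted p = 0.31) and G6PGH1 had 0.05. The C4-type carbon fixation enzymes, 4 genes with roles outside the cycle in a C3 leaf, had a median of -0.10. PPDK2, a pyruvate, orthophosphate dikinase, was lower on every BA array, at 1137, 1287 and 1304 in BA leaves and 1538, 3331 and 1712 in untreated leaves, with a log2 change of -0.73 (limma adjusted p = 0.58). OsPPDKB had 0.39, ME6 0.08 and NADP-ME2 -0.29. Among the green leaf markers, petC, the Rieske iron-sulfur protein of the cytochrome b6f complex, had 370, 386 and 360 in BA leaves and 130, 202 and 209 in untreated leaves, with a log2 change of 1.07 (limma adjusted p = 0.15). The other green leaf marker, CAB2R, a chlorophyll a/b-binding protein, overlapped between the groups at 762, 1585 and 1304 in BA leaves and 1928, 2126 and 582 in untreated leaves.

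**Figure D5:**
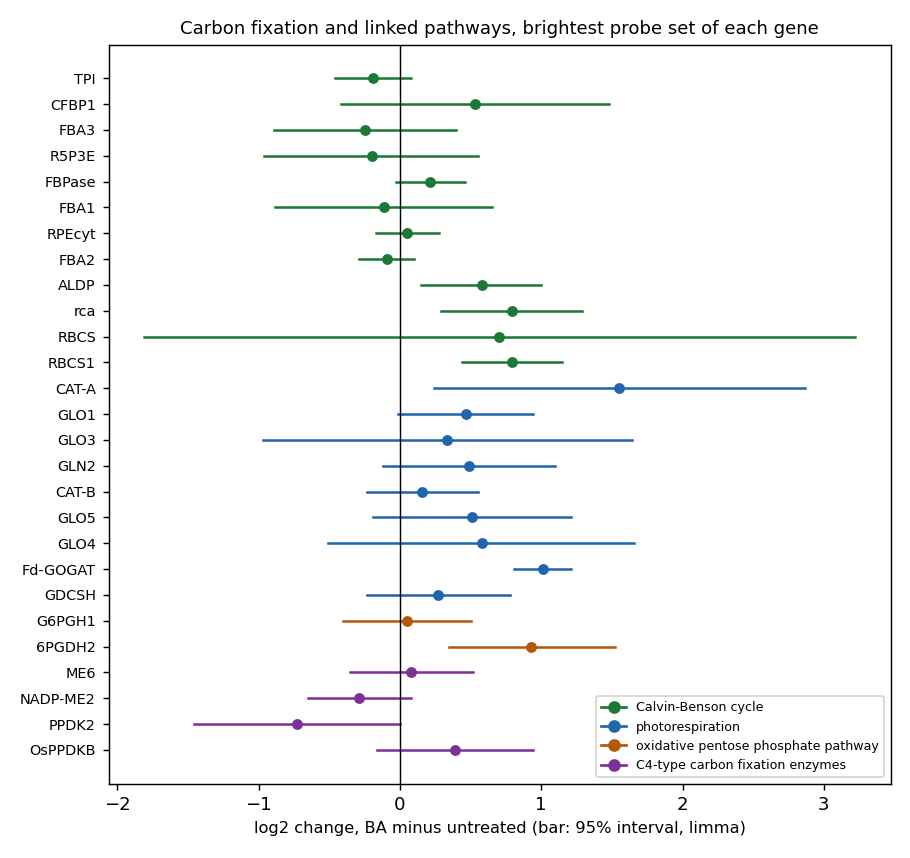
Log2 change, BA minus untreated, with 95% intervals from limma, for the brightest probe set of each measured gene in 4 lists. Point estimates of the photorespiration genes lie above 0 throughout, with Fd-GOGAT at 1.01, but only the intervals of Fd-GOGAT and CAT-A exclude 0. Point estimates of Calvin-Benson genes other than RBCS1, RBCS and rca lie on both sides of 0.

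The genes whose log2 signal was most like that of each member over the 6 arrays were found among 1297 named genes with a mean signal of at least 100 for RBCS1 and 1296 for each of the others. For RBCS1 they were ta4, the invertase gene CINV1, the ethylene-signalling gene EIL1, OsITPK3 and OsPBB1, at r = 0.978 to 0.987. For rca they were HAK17, a potassium transporter gene, the calmodulin gene CAM, XCT, GH3.5 and BGLU12, at r = 0.962 to 0.992. All 10 of these had a log2 change above 0, from 0.25 for OsPBB1 to 1.83 for HAK17, and none had a limma adjusted p under 0.05. For RBCS they were OSE727A, OsSAP4, FTR-B, eIF-4E-1 and OsTLP12, at r = 0.944 to 0.991, with log2 changes of 0.09 to 0.26. For R5P3E they were 4CL-3 and 4CL4, which encode 4-coumarate:CoA ligases, DAHPS1, which opens the shikimate pathway, AT9 and the sucrose transporter gene OsSUT2, at r = 0.929 to 0.973, with log2 changes of -0.55 to -0.11. With 6 arrays and so many genes searched, such values of r are a description of these arrays.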

How the data were processed

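Total RNA of 6 leaf samples was hybridised to the Affymetrix rice genome array, and the study's methods call the 3 samples of each group biological replicates. The deposited values are linear signal intensity values per probe set, made with PLIER and variance stabilization per the labels. RMA is a further tool in the submitters' processing notes, with no role given. Scanner files and detection calls were not used here. Probe sets were named through the array's annotation table and the gene table of assembly ASM3414082v1: a single gene was given for 22436, more than 1 for 95 and no gene for 34850. Of the 4 names only RBCS1 is a symbol there, and RBCS, rca and R5P3E are further names of their entries. After 123 control probe sets were left out, log2(signal + 1) of 57258 probe sets was compared with limma 3.58.1 in R 4.3.3, without a block, and p-values were adjusted by Benjamini-Hochberg. Fold changes are on that scale. The number of arrays limits the precision. Pathway and marker lists used the brightest probe set of each gene. Named genes were all members, all measured Calvin-Benson genes, up to 4 genes of each other pathway list by smallest p with at most 2 per direction, and the 5 most similar genes per member. The markers petC and CAB2R, the gene GDCSH and the comparison of shared probe sets were added to these. The members and lists were chosen with earlier results of these data known. Alternatives covered normalization, the log offset, the variance model, a filter on low signals, replicate structure and each array left out. The fit was tested on simulated data with independent arrays and no lowest value. That test does not cover the closeness of BA replicates 2 and 3 or signals near 16.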

Additional observations from a re-analysis of the deposited data

How the results depend on the processing

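The number of arrays sets the main limit, with 3 a group and BA replicates 2 and 3 closer to each other than other replicates. Of 76 values of the 4 gene changes under alternatives, 74 kept their direction and 0 passed an adjusted p of 0.05 in limma. The exceptions were RBCS without BA replicate 1 (-0.10) and without untreated replicate 2 (-0.24), in a range of -0.24 to 1.23 over single arrays left out. That range was 0.70 to 0.93 for RBCS1, 0.60 to 1.00 for rca and -0.51 to -0.00 for R5P3E. The lowest adjusted p was 0.085 for RBCS1 (array weights), 0.094 for the brightest rca probe set (without untreated replicate 3) and, among all members, 0.067 for the rca probe set Os.11573.2.A1_a_at (array weights). The highest limma adjusted p of the same probe sets was 0.55, 0.81 and 0.51, in that order. The count of 5 members past 1.5-fold and an unadjusted p under 0.05 held in 18 of 18 alternatives. Single RBCS probe sets also changed sign: with single arrays left out, Os.39038.1.A1_at ranged from -0.15 to 0.63 (below 0 without BA replicate 1 or untreated replicate 2) and Os.49262.1.A1_x_at from -0.00 to 0.08. The shared probe set Os.40411.1.A1_x_at ranged from -0.03 to 0.18, and Os.8665.1.S1_s_at of RPEcyt, at -0.03 as reported, from -0.09 to 0.05 and was 0.04 with array weights. The cause of these changes was not tested.

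Over all rice probe sets, 53 were higher and 38 lower at an adjusted p under 0.05. The counts were 24 and 24 with the constant removed, 150 and 130 with array weights, 1 and 0 with ordinary pooled variance, and 0 and 0 with BA replicates 2 and 3 averaged, and 63 were lower with the eBayes trend. With single arrays left out, 0 to 98 were higher and 0 to 82 lower, with 0 of either when BA replicate 2 or 3 was left out. With the replicate block 0 and 0 were called. Whether the replicate numbers pair the samples could not be settled, because deviations from means of 3 arrays are not independent of each other. Deviations of same-numbered samples correlated at 0.42, -0.01 and 0.42, and those of other pairs at -0.40 to 0.27. BA replicate 2 correlated best with untreated replicate 3. The block left 5 members past 1.5-fold and p and gave RBCS1 0.79 with an adjusted p of 0.11.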
